A study of Homo sapiens with 7 samples.

Results

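The long H3K9me3 domains of Clone 3 are the autosomal regions of at least 100 kb in the domain set that was kept in both H3K9me3 samples of this clone. A domain was chosen by its measured length alone, and 310 of the 567 domains of the set met the rule on chromosomes 1 to 22. The set held 504 autosomal domains in all, of which 194 were shorter, and 3 further domains of at least 100 kb lay off the autosomes. H3K9me3 is trimethylation of lysine 9 of histone H3. It is the mark of constitutive heterochromatin, which is compacted, late replicating and mostly silent, and it is bound by HP1 proteins. In mammalian cells broad H3K9me3 domains are known over satellite repeats, gene-poor sequence, clusters of KRAB zinc finger (ZNF) genes and genes of other lineages. H3K27me3, the mark of Polycomb repression, marks a different kind of silent chromatin.

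The cells were HCT116, a human colorectal carcinoma line, and they carried a doxycycline-inducible short hairpin RNA against UHRF1, a ubiquitin ligase required for the maintenance of DNA methylation. They were collected at day 14 without doxycycline, so the knockdown was not induced in any group used here. Chromatin immunoprecipitation with sequencing gave 2 samples each of Clone 3 H3K9me3, Clone 3 H3K27me3 and Clone 6 H3K27me3, with 1 Clone 3 input. Each line is 1 clone, and the sets hold only regions kept in both samples, so no value has a replicate error and the depth of each library cannot be read from them.

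Stretches of 300 bases from hg38 show what the CpG measures count, and the capitals mark each CpG. The first comes from just before the start of the longest domain, at chr5:17599701-17600000. The next is the centre of the domain with the most gene start sites, at chr19:52791851-52792150. The last pair are the centres of the domains with the highest and the lowest CpG density, at chr17:21905851-21906150 and chr11:22072351-22072650. All are given on the plus strand. The first 3 lie in no annotated gene, and the last lies in an intron of ANO5 and overlaps no exon.
Before the longest domain, 3 CpGs: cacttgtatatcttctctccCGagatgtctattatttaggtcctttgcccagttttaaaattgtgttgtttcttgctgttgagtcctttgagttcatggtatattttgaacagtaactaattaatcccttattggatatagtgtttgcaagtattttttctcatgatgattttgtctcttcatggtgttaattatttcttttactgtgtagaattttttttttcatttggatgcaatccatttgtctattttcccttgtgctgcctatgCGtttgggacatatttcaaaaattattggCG
Centre of the chromosome 19 domain with most start sites, 6 CpGs: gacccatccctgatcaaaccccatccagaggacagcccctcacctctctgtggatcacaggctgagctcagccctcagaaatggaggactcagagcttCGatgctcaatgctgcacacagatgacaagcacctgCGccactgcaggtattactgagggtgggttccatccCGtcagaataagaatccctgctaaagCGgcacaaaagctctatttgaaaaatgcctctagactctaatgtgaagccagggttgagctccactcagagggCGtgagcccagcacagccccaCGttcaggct
Centre of the CpG-densest domain, 7 CpGs: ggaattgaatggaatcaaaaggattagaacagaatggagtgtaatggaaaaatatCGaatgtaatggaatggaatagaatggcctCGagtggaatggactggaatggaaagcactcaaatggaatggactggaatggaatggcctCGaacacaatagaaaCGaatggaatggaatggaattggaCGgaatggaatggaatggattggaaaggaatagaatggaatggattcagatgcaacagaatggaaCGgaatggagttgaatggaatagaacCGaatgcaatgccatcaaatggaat
Centre of the CpG-poorest domain, 0 CpGs: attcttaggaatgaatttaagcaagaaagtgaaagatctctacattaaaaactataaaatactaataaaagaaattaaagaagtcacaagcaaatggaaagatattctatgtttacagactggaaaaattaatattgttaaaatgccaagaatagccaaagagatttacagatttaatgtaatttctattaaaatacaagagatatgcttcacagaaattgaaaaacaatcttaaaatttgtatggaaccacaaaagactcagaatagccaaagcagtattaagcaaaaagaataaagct
The chromosome 17 stretch is made of diverged repeats of a 5-base unit with CpGs spread through it, whereas the CpGs of the chromosome 5 stretch are few. Counts in single stretches are examples, and the values below cover whole domains.

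The 310 domains summed to 365.3 Mb, which was 97.6% of all autosomal H3K9me3 sequence in the set and 13.3% of the gap-free autosomes. Their lengths ran from 101 to 11436 kb with a median of 633.5 kb, and the middle 50% of them lay between 253.5 and 1532.5 kb. Most of the sequence sat in few domains. The 112 domains of at least 1 Mb made up 36.1% of the members and held 78.2% of their length, and the 57 domains of at least 2 Mb held 205.5 Mb. The 3 domains just inside the threshold were chr5:140731001-140832000, chr5:150864001-150966000 and chr11:22021001-22124000, at 101, 102 and 103 kb. The 3 just outside it were chr7:57638001-57736000 at 98 kb, and chr1:102469001-102566000 and chr1:124979001-125076000 at 97 kb each. The lengths ran on without a break at this point. The plot of lengths shows the same continuity.

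**Figure D1:**
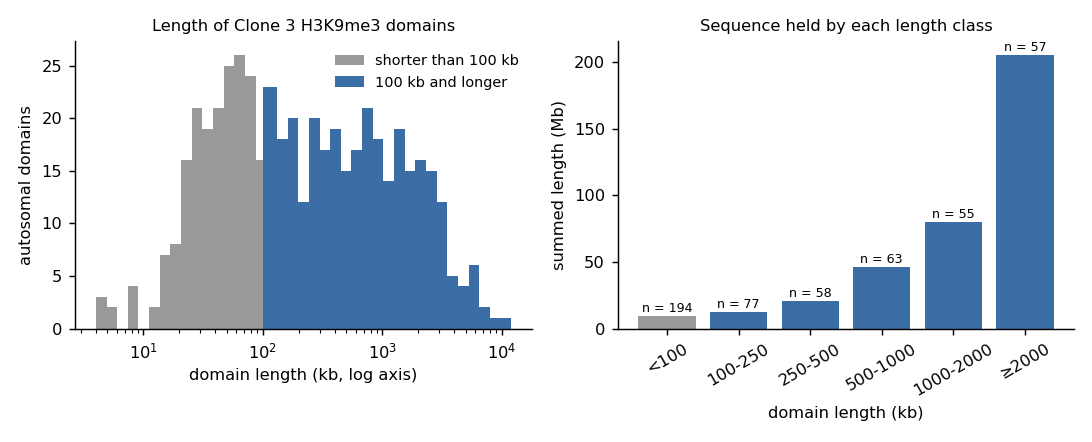
Left, number of autosomal Clone 3 H3K9me3 domains by length in kb on a log axis, with domains shorter than 100 kb in grey and the 310 long domains in blue. Right, summed length in Mb of each length class with the number of domains above each bar, where the 57 domains of at least 2 Mb hold 205.5 Mb and the 194 short domains 9.12 Mb.

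The 10 longest domains held 68.9 Mb, with 35 protein-coding genes starting in them. The longest, chr5:17600001-29036000 (11436 kb), held 10 start sites. These belonged to 4 type II cadherins, CDH18, CDH12, CDH10 and CDH9, which are calcium-dependent adhesion molecules, to PRDM9, a methyltransferase that places meiotic recombination, to the histone variant gene H3Y1 and to TAF11L11, TAF11L12, TAF11L13 and TAF11L14. The TAF11L copies and H3Y1 lay within the first 60 kb, between positions 17604177 and 17655849, so the rest of the domain held 5 genes. CDH18 (chr5:19471296-20575873) and CDH12 (chr5:21750673-22853344) alone spanned 1104.6 and 1102.7 kb, and both lay wholly inside. The second, chr4:58931001-67063000 (8132 kb), held the latrophilin gene ADGRL3, TECRL, and EPHA5, which encodes an ephrin receptor. The third, chr21:17964001-25384000 (7420 kb), held TMPRSS15, the gene of the intestinal protease enteropeptidase, and NCAM2, which encodes a neural cell adhesion molecule. All 15 genes of these 3 domains lay inside them over their whole length.

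The next in length were chr16:59102001-65690000 (6588 kb) with the cadherins CDH8 and CDH11, chr14:81725001-87932000 (6207 kb) with FLRT2, and chr8:110140001-116267000 (6127 kb) with CSMD3 and TRPS1. They were followed by chr13:53252001-59260000 (6008 kb) with PCDH17 and 5 PRR20 copies, chr11:36972001-42941000 (5969 kb) with LRRC4C, and chr3:75664001-81224000 (5560 kb) with the axon guidance receptors ROBO1 and ROBO2, ZNF717 and FRG2C. The tenth, chr14:24764001-30212000 (5448 kb), included STXBP6, NOVA1, which encodes a neuronal splicing regulator, and PRKD1. Copies as alike as those of PRR20 and TAF11L can share reads, and the effect on the domain calls was not tested. The 10 domains were alike in sequence, with 5.44 to 6.69 CpGs per kb, and none of them overlapped an H3K27me3 domain of either clone.

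All 22 autosomes carried long H3K9me3 domains, but to very different degrees. Chromosome 21 had 36.6% of its gap-free sequence in them, followed by chromosome 18 with 29.4%, chromosome 19 with 24.6% and chromosome 11 with 20.1%. The lowest shares were 5.15% on chromosome 12, 5.68% on chromosome 1 and 5.78% on chromosome 6. The number of domains ran from 3 on chromosome 22 to 23 on chromosome 2. Neighbouring domains were at a median distance of 1670 kb from the end of a member to the next H3K9me3 domain of any length, and 62 of the 310 members had the next domain within 100 kb. It was under 100 kb away for 153 of all 504 autosomal domains and 91 of the 194 shorter ones. An assembly gap, a run of at least 50 kb without known bases, lay within 1 Mb of 40 members. The lower quartile of the distance to such a gap was 3518 kb in the members and 880 kb in the shorter domains.

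**Figure D2:**
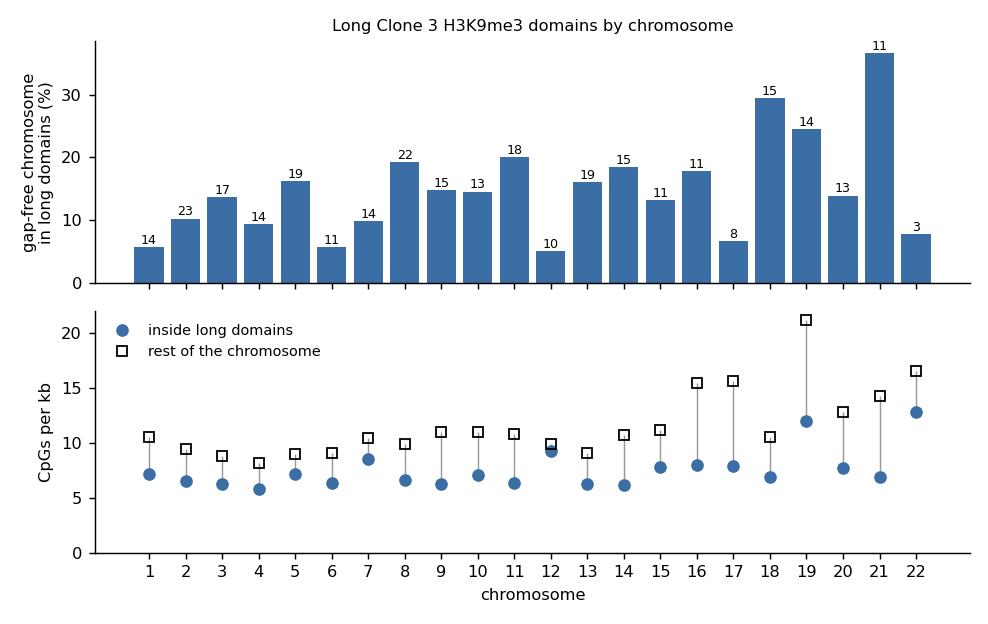
Top, percentage of each gap-free autosome inside long H3K9me3 domains with the number of domains above each bar, highest on chromosome 21 at 36.6%. Bottom, CpGs per kb inside the long domains (filled circles) and in the rest of the same chromosome (open squares), where the circle lies lower on 22 of 22 chromosomes.

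Each domain carried 2 scores from the authors, whose scale and sample are not named, and they are called the first and the second score here. The second score was the higher in 308 of the 310 domains. The lower of the 2 scores peaked at 1637 in chr4:58931001-67063000, the second-longest domain. Across the 310 domains the scores followed length, with a Spearman's rho of 0.94 for the first and 0.88 for the second. Length also chose the members, and the scale of the scores is not known. The relation therefore does not show that longer domains were marked more strongly. Neighbouring domains can carry the same value of a score, as the parts of a longer region would, and 73 members shared their first score and 50 their second with a neighbour. In the 192 members that shared neither, the first score had a median of 0.217 per kb and the second of 0.854 per kb, and the ratio of second to first had a median of 4.08 with quartiles of 3.73 and 4.36. These correlations are descriptions over domains of the same 2 lists and carry no p.

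CpG density was low in the long domains. They held 7.10 CpGs per kb, against 10.1 over all autosomes, 10.6 over the autosomal sequence outside them and 9.68 in the shorter H3K9me3 domains. Single shorter domains reached 49.8. Per domain the medians lay nearer to each other, at 6.51 in the long and 7.0 in the shorter domains, with median low-density shares of 67.3% and 65.5%. GC content was 37.6%, against 41.0% over the autosomes. A CpG counted as low-density if at least 20 bp separated it from each neighbouring CpG, since the study is concerned with methylation in sparse CpGs. Such CpGs made up 64.3% of those in the long domains and 52.7% of those on the autosomes. On each of the 22 chromosomes CpG density was lower and the low-density share higher inside the members than in the rest of the same chromosome. The difference was smallest on chromosome 12, with 9.24 CpGs per kb inside and 9.92 outside, and largest on chromosome 19, with 11.97 and 21.2.

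The domains also differed among themselves. Per domain the density had a median of 6.51 CpGs per kb with quartiles of 5.81 and 8.67, and it ran from 4.72 in chr11:22021001-22124000 to 28.3 in chr17:21841001-21971000. Density hardly followed length, with a Spearman's rho of -0.06 across the 310 domains, although the 57 domains of at least 2 Mb reached no more than 12.03 CpGs per kb. The autosomal mean of 10.1 was exceeded by 48 members (15.5%). In the shorter H3K9me3 domains the upper quartile was 10.8, above this mean, and over all autosomal H3K9me3 domains it was 9.27. Of these 48, 17 held ZNF genes, 11 lay within 1 Mb of an assembly gap and 22 did neither. The densest 3, on chromosomes 17, 16 and 7, started no protein-coding gene and lay 21.1, 12.5 and 33.8 kb from a gap. The fourth, chr5:141148001-141436000 at 20.9 CpGs per kb, was the clustered protocadherin domain described below, and it had the lowest low-density share of all members, 24.3%.

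**Figure D3:**
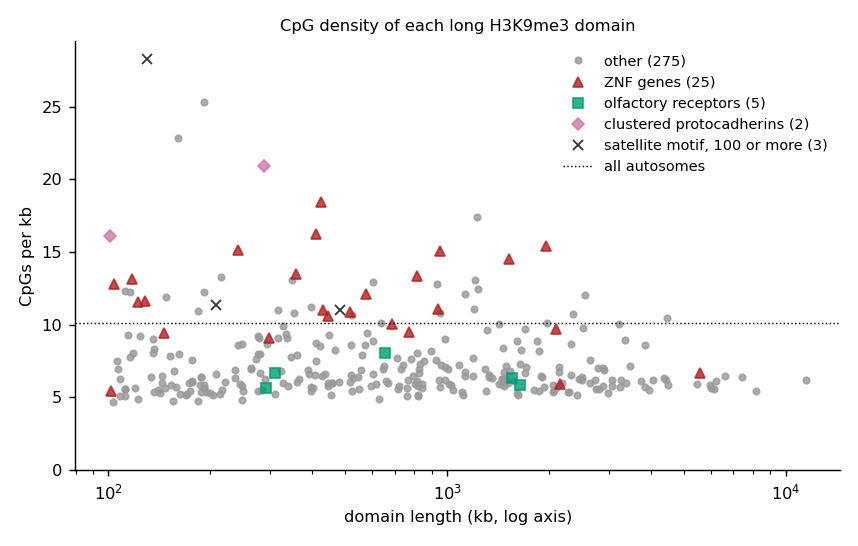
CpGs per kb of each of the 310 long H3K9me3 domains against its length in kb on a log axis, with the autosomal mean of 10.1 as a dotted line. Triangles mark the 25 domains with ZNF genes, squares 5 with olfactory receptor genes and no ZNF gene, diamonds the 2 with clustered protocadherins and crosses 3 with at least 100 matches to a satellite motif, and most unmarked domains lie under the line at every length.

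Motifs of repeated sequence were searched on both strands of the autosomes, with overlapping matches counted. The first, CATACTGGAGAGAAA, was the 15-base word shared by the transcripts of the largest number of ZNF genes, 171 of the 552 read, and it encodes the linker between adjacent zinc fingers. It had 972 autosomal matches, of which 70.5% lay in the long domains, so that its density was 1.88 per Mb there and 0.353 per Mb over the autosomes. It was 5.05 per Mb in the shorter H3K9me3 domains, and 0.470 per Mb in the long domains without chromosome 19. The 221 matches in chr19:51812001-53772000 were the most of any member. Of the 29 members with this word, 9 with 38 matches had no start site of a ZNF gene. The second motif, GGAATGGAATGGAAT, is 3 units of the simple satellite repeat seen in the chromosome 17 stretch above. Of its 17259 autosomal matches 23.7% lay in long domains and 7827 in the shorter ones. It was found in 20 members, and 3 of them held 3844 of the 4095 matches, namely chr10:41708001-41916000, chr21:10328001-10812000 and chr17:21841001-21971000. The third was the CENP-B box TTCGNNNNANNCGGG of centromeric alpha satellite, of which only 0.134% of 131812 matches lay in long domains. Reads from such arrays map to many places, and what this did to the domain calls was not tested. None of the 3 words contains another, and a match is a word in the reference sequence, not a bound site.

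Protein-coding genes were sparse. Long domains held the start sites of 645 of the 19111 autosomal protein-coding genes (3.38%), or 1.77 per Mb against 6.93 over the autosomes, and the density was lower inside than outside on 22 of 22 chromosomes. The shorter H3K9me3 domains held 2.63 per Mb. No such start site was present in 141 members (45.5%), and 90 had exactly 1. The share without one was 63.1% over all autosomal H3K9me3 domains and 91.2% over the shorter ones, and it depends on the length of a domain. Gene-free members were common among the shorter lengths, at 75.3% of those from 100 to 250 kb and 5.26% of those of at least 2 Mb. The longest class had the fewest start sites per Mb, 0.66. Start sites of long noncoding RNA genes were thinned less, at 4.44 per Mb against 6.67, and pseudogenes stood at 3.58 per Mb against 5.06. Of the 645 genes, 548 (85.0%) lay inside the domains over their whole length. Among the 620 domain edges 172 (27.7%) fell within a protein-coding gene, where such genes cover 45.3% of the autosomes and 28.6% of the members.

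Gene clusters and very long genes made up much of the list. ZNF genes, which encode mostly KRAB zinc finger repressors, gave 213 of the 645 genes, or 38.4% of the 555 autosomal ZNF genes against 3.38% of all protein-coding genes. They lay in 25 members, and 180 of them were on chromosome 19. Off chromosome 19, 33 of 292 were in members, starting in chromosome order with ZNF695, ZNF2, ZNF514 and ZNF892. The 14 members on chromosome 19 held 217 start sites, or 15.1 per Mb, and 11.97 CpGs per kb. The domain with the most start sites of all, chr19:51812001-53772000, held 47, of which 39 were ZNF genes, with 15.4 CpGs per kb and a first and second score of 428.4 and 1472. ZNF300 was the only gene of chr5:150864001-150966000, the second-shortest member. Zinc finger genes are close paralogs, and whether shared reads moved a domain edge was not tested.

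Olfactory receptors, the odorant receptors of the nose, gave 76 of 415 genes (18.3%) in 6 members, the first being OR6F1, OR14K1, OR14A2 and OR1C1 in chr1:247696001-248352000. The one with the most start sites, chr11:54553001-56189000, held 31 protein-coding start sites, of which 29 were of olfactory receptors, and 5.86 CpGs per kb, with a low-density share of 74.9%. Clustered protocadherins, which give neurons their surface identity, had 36 of 53 genes in members. The start sites of PCDHA1 to PCDHA6 lay in the shortest member, chr5:140731001-140832000, and those of the other 30 lay in chr5:141148001-141436000. Type II cadherins had 8 of 12 genes in 3 members, namely the 4 in the longest domain, CDH8 and CDH11 on chromosome 16, and CDH7 and CDH19 on chromosome 18. Keratin-associated proteins of hair had 31 of 94 genes, all in chr21:29711001-30840000, where KRTAP24-1, KRTAP25-1, KRTAP26-1 and KRTAP27-1 came first beside GRIK1, CLDN17 and CLDN8. These clusters therefore entered the set as few domains, and genes of 1 domain are not separate observations.

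Long neural adhesion genes had 23 of 46 members of their list in 18 domains, beginning with NEGR1, LRRTM4, CTNNA2 and LRRTM1. Not every gene of this list is long, as LRRTM1 spans 16.4 kb and lies within the bounds of CTNNA2. Receptors of glutamate and GABA, the main transmitters of the brain, had 11 of 43 in 5 domains, with GABRG1, GABRA2, GABRA4 and GABRB1 first. Of the 11, GRM6 and GRIK1 are receptors of glutamate and the rest are of GABA. Non-clustered protocadherins had 2 of 10, PCDH15 and PCDH17. Genes with potassium channel symbols had 4 of 94, KCNH8, KCNIP4, KCNU1 and KCNJ6, which is close to the share of all genes. Of these, KCNIP4 encodes a protein that interacts with such channels and was taken in by its symbol. Bitter taste receptors had 1 of 24, TAS2R1, and cytochrome P450 genes 1 of 57, CYP7B1. No gene started in a long domain among the 39 HOX genes, 79 ribosomal protein genes, 39 proteasome genes, 79 histone genes, 46 defensins, 23 PRAME, 22 UGT and 15 type I interferon genes taken by symbol. The symbol rules did not take in RPSA2, a ribosomal protein SA gene on chromosome 19, and H3Y1, which both start in members. Genes in no list stood at 239 of 17366, or 1.38%.

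Genes in the long domains were long where they did not belong to the ZNF and olfactory families. The 356 such genes had a median length of 109.2 kb, against 28.8 kb for the 17785 genes outside the members that belong to neither family. With both families kept, the medians were 31.1 kb for all 645 and 27.7 kb outside. Of the 309 autosomal genes of at least 500 kb, 70 (22.7%) started in a member and 37 of these lay wholly inside. The 5 longest were CNTNAP2 (2305 kb), a neurexin-like adhesion gene, PTPRD (2299 kb), a receptor phosphatase of synapses, CSMD1 (2060 kb), EYS (1987 kb), a photoreceptor gene, and PCDH15 (1825 kb), a gene of inner ear hair cells. PTPRD, CSMD1 and PCDH15 lay inside over their whole length, CNTNAP2 over 83.7% of it and EYS over 52.6%.

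Promoter sequence differed between these groups. RefSeq promoters of GRCh38.p14, which run from 250 bases before to 50 bases after a start, matched 505 of the 645 genes. They held a median of 14 CpGs, against 23 for autosomal genes outside the members. ZNF promoters in members had a median of 19 CpGs against 24 outside, olfactory receptor promoters 1 against 1, and all others 11 against 23. These others include 2 gene clusters. Keratin-associated protein promoters, all from 1 domain, held 0 to 3 CpGs, and clustered protocadherin promoters, from 2 domains, held 2 to 16. The value of 11 thus rests in part on these clusters, and the median without them was not computed. At most 5 CpGs were found in 29.3% of member promoters and 18.7% of those outside. RefSeq starts can differ from the GENCODE starts that place genes in domains, and for the 400 genes with the starts within 100 bp of each other the median was 13.5, against 23 outside. The 250 bases before the start of 3 genes, for which the starts were the same, show this range, each on the minus strand, read 5′ to 3′ along the gene with CpGs in capitals and overlapping no annotated exon. They are CDH10 at chr5:24644979-24645228, ZNF841 at chr19:52095766-52096015 and OR4C46 at chr11:54603999-54604248, and they were picked after their values were seen.
CDH10, 10 CpGs: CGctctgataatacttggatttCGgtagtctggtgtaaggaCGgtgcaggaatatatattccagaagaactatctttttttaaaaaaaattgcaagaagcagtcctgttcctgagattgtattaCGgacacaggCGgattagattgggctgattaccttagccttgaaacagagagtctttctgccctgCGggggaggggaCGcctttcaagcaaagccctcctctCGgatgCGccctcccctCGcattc
ZNF841, 17 CpGs: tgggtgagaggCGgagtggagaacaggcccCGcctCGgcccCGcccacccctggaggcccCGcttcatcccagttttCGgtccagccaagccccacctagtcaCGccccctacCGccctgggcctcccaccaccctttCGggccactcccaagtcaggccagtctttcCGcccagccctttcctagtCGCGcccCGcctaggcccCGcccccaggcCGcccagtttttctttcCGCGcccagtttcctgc
OR4C46, 1 CpG: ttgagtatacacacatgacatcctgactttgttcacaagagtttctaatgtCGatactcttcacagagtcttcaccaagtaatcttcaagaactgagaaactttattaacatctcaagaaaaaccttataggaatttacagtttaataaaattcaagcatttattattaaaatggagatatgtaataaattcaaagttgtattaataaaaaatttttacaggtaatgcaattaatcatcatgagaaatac
The ZNF841 stretch carries CpGs along most of its length, whereas the olfactory receptor stretch holds a single CpG. Methylation was not measured in these files.

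Most of the long-domain sequence was also in the H3K9me3 set shared with Clone 6. The set shared by the clones covered 345.2 Mb (94.5%) of it, against 66.7% of the length of the shorter domains. At least 50% of the length was shared in 260 of 310 members (83.9%), where the figure over all 504 autosomal domains was 76.2% and over the 194 shorter ones 63.9%. Sharing was more frequent at greater length, from 58.4% of the members of 100 to 250 kb through 77.6%, 93.7% and 98.2% to 100% of those of at least 2 Mb. All but 1 of the 10 longest domains were shared over their whole length, and the exception, chr11:36972001-42941000 with LRRC4C, was shared over 86.3%. The 25 ZNF domains were shared over 99.3% of their length and the 6 olfactory receptor domains over 98.5%. Over all members 72.5% of the first 20 kb inside an edge was in the shared set. In the 112 members of at least 1 Mb, which fill every distance up to 500 kb, this share was 86.8% in the first 20 kb and 98.2% at 480 to 500 kb.

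**Figure D4:**
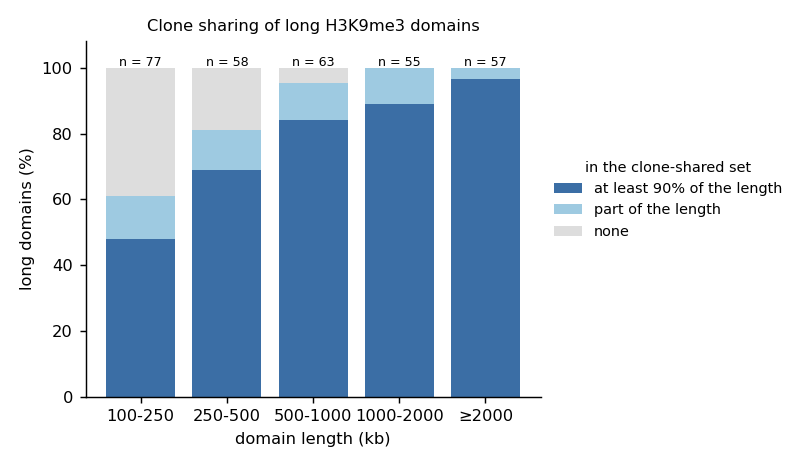
Percentage of long H3K9me3 domains in each length class (kb) that lay in the clone-shared set over at least 90% of their length (dark blue), over part of it (light blue) or not at all (grey), with the number of domains above each bar. The grey part falls from 30 of 77 domains at 100 to 250 kb to none from 1 Mb upwards.

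The 44 members with no shared sequence were short and low in score. They summed to 10.97 Mb with a median length of 199 kb and at most 715 kb, against a median of 848.5 kb for the 234 members shared over at least 90%. The lower of their scores had a median of 20.2, against 199.4. Length and score moved together with sharing here, and their separate parts were not tested. Of the 44, 37 started no protein-coding gene, where 75.3% of all members of 100 to 250 kb started none. They were unevenly placed, with 8 on chromosome 2 and 7 on chromosome 13 and none on 10 of the autosomes, and chromosome 13 had the lowest shared length at 74.9%.

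Some of the sequence that was missing from the shared set lay in H3K27me3 domains in Clone 6. Clone 6 H3K9me3 by itself was not used here, so absence from the shared set does not show that Clone 6 lacked the mark. Of the 20.05 Mb of the members outside the shared set, 3.13 Mb (15.6%) was covered by Clone 6 H3K27me3 and 0.345 Mb (1.72%) by Clone 3 H3K27me3. In the 345.2 Mb inside the shared set these shares were 1.22% and 1.06%, and over all autosomes 13.0% and 13.5%. The Clone 6 share outside the shared set was thus near that of the autosomes as a whole. In the 44 members with no shared sequence taken alone it was higher, at 21.9%, against 2.82% for Clone 3. Clone 6 H3K27me3 touched 13 of these 44. Among the 44 unshared members 6 were covered by Clone 6 H3K27me3 over at least 50% of their length. The only one of them with gene starts was chr13:36013001-36572000 (559 kb), which held DCLK1, a doublecortin-like kinase gene, SOHLH2, CCDC169, CCDC169-SOHLH2, SPART and the germline cyclin gene CCNA1. It was covered over 98.7% by H3K27me3 in Clone 6 and over 0% in Clone 3. Among the others with no Clone 3 H3K27me3 were chr2:40800001-41515000 with 89.4% and chr3:117252001-117440000 with 100%, neither with a gene start. The 6 were picked on these values, so the comparison is a description of single regions in merged sets.

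H3K27me3 of the same clone was scarce inside H3K9me3 domains of any length. It covered 3.99 Mb (1.09%) of the long and 1.03% of the shorter domains, against 13.5% of the autosomes. It touched 41 long domains (13.2%), against 2.06% of the shorter and 8.93% of all autosomal domains, and 18 of the 41 were covered over at least 10% of their length. These 18 were 5.81% of the long domains, where the share was 1.55% of the shorter and 4.17% of all autosomal domains. None of the 25 ZNF or 6 olfactory receptor domains was touched. Of the 56 H3K27me3 stretches inside members 34 reached an edge, and these held 2.16 Mb. The mark was nearly absent from the longest domains, with 0.0779% of the length of those of at least 2 Mb.

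A few members carried both marks in the same clone. H3K27me3 covered at least 50% of the length of 8 members (2.58%), against 2.18% of all autosomal H3K9me3 domains and 1.55% of the shorter ones. It covered 3 of the 8 over their whole length, chr16:13088001-13508000, chr18:25208001-25326000 and chr20:24192001-24344000. Of the 3, chr16:13088001-13508000 was also covered over 100% by Clone 6 H3K27me3 and was shared for H3K9me3 over 96.7%. The largest overlaps in members with a gene were at chr9:16652001-17048000 with BNC2, a zinc finger gene (56.8%), chr22:47649001-48873000 with TAFA5 (45.0%) and chr10:128964001-129568000 with MGMT, which encodes a DNA repair enzyme (36.6%). Domain sets do not show whether the marks sat on the same chromosomes, cells or nucleosomes.

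H3K27me3 domains were instead frequent at some distance from the edges. A Clone 3 H3K27me3 domain lay within 100 kb of 142 members (45.8%), on both sides of 52 of them, where the share was 34.9% over all autosomal H3K9me3 domains and 17.5% over the shorter ones. In steps of 20 kb across the edges, the share of sequence in Clone 3 H3K27me3 domains was 8.60% just outside, rose to 39.8% at 220 to 240 kb outside and fell to 22.4% at 480 to 500 kb. Inside it was 5.27% in the first 20 kb and 0.293% at 220 to 240 kb. Clone 6 H3K27me3 followed a like course, with 8.55%, 35.6% and 20.6% outside and 7.23% and 1.99% inside. CpG density did not jump at the edge, with 8.52 CpGs per kb in the last 20 kb outside and 8.20 in the first 20 kb inside, and it was 9.88 at 500 to 480 kb outside. Depths beyond 50 kb inside hold only the longer members. In the 112 members of at least 1 Mb, which are the same domains at every distance, CpG density was 8.03 in the last 20 kb outside, 7.60 in the first 20 kb inside and 6.83 at 480 to 500 kb. Their Clone 3 H3K27me3 share was 10.1% in the last 20 kb outside, 48.6% at 220 to 240 kb outside, 4.00% in the first 20 kb inside and 0% at 220 to 240 kb. Its highest value in these members lay nearer the edge than over all members, with 54.9% at 140 to 160 kb outside, and that of Clone 6 was 47.2% at 160 to 180 kb. Other H3K9me3 domains took up 6.57% to 15.8% of the outside sequence. Clone 3 H3K27me3 lay within 100 kb of 1 of the 14 members on chromosome 19, 3 of the 25 with ZNF genes and 1 of the 6 with olfactory receptors, against 49.3% of the members with neither family.

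**Figure D5:**
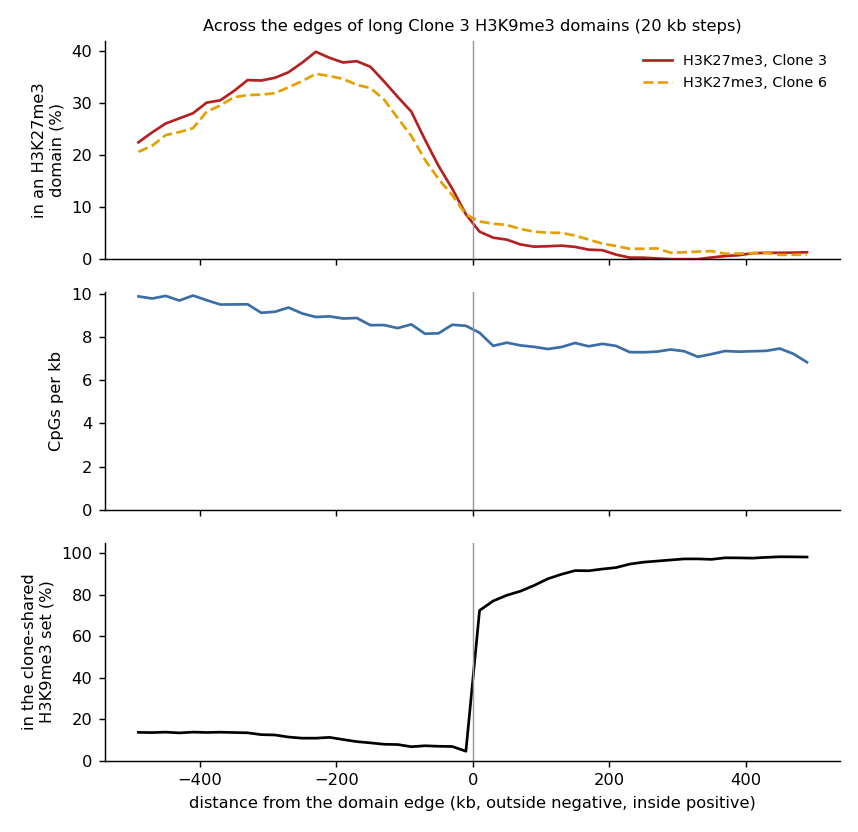
Values in steps of 20 kb across the edges of the 310 long H3K9me3 domains, with distance in kb negative outside and positive inside, where deeper steps inside hold fewer and longer domains. The top panel gives the percentage of sequence in H3K27me3 domains of Clone 3 (solid) and Clone 6 (dashed), which peaks at 39.8% and 35.6% at 220 to 240 kb outside, the middle panel CpGs per kb and the bottom panel the percentage in the clone-shared H3K9me3 set.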

How the data were processed

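Clone and mark in the labels gave the groups. Per the submitters' processing notes, read pairs of 50 bp were trimmed with Trim Galore 0.5.0, checked with FastQC 0.11.8 and aligned to hg38 with Bowtie2 2.3.5. The study's methods add removal of duplicates and domain calling with Enriched Domain Detector at default settings, and the coordinates found in both replicates were kept. The authors deposited 5 such sets, with whole-kb edges, and in the clone sets 2 score columns of unnamed scale, which were used only as a score of a domain relative to others. The study states a minimum depth for its libraries, but depth per library cannot be read from the sets, and merged sets allow no test over samples, so every comparison is a description.

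CpGs and GC bases were counted in 1 kb bins of the hg38 reference, and a gene of GENCODE 44 was assigned to the domain that contained its start site. Gene families were taken by symbol. The repeat-masked share was planned and not computed, since no repeat annotation was used here. A gene and a planned sequence are not reported here. The members, gene lists and measures were chosen with earlier results of these data known, and the motifs, promoters and edge profile were later additions, made with the data in view. The text names the 10 longest members, those with the highest lower score, most start sites and extreme CpG density, those next to the threshold, the genes of the 3 longest members, up to 4 genes a family and the 5 longest genes, and domains outside this rule were named after their values were seen.

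Sensitivity settings were other length limits, merging of domains under 50 kb apart, all chromosomes, chromosome 19 left out, other CpG and gene rules, other overlap and distance limits, and shared members only. Scripts used numpy 2.4.6, pandas 2.3.3 and matplotlib 3.10.9 under Python 3.11.15, and 5 functions were tested on simulated data in 200 cases each, of which 0 differed from a direct count.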

Additional observations from a re-analysis of the deposited data

How the results depend on the processing

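Other settings gave 47 values of 15 results. Of these, 31 moved by less than the spread over members, the 95% exact binomial interval or 1.5 times, and 16 moved by more. The spread is wide, with a standard deviation of 1462 kb for length and 3.14 CpGs per kb for density, so staying within it is no proof of stability. Neighbouring domains are not independent, so the binomial intervals are working limits only. For the edge profile they took a share of sequence as a share of the 620 edges. The number of members fell to 175 at a minimum of 500 kb. Without chromosome 19 the protein-coding genes numbered 428 and the ZNF genes 33. The median low-density share of 67.3% became 53.1% with a spacing of 35 bp and 80.2% with the downstream CpG only. The autosomal shares, which are pooled over all CpGs and are not medians, were 36.9% and 69.1%. Pooled in the same way, the share in the members was 49.2% with a spacing of 35 bp. Members without a gene were 33.9% when any overlap with a gene body counted and 38.5% among members with at least 50% of their length shared. Members shared between the clones were 75.5% at 90% of the length and 99.4% in the upper 50% by the lower score. H3K27me3 lay within 50 kb of 28.4% and within 200 kb of 62.9% of members. Inside members it was present in 5.81% when at least 10% of the length had to be covered and in 6.77% by the clone-shared H3K27me3 set. Why values moved was not tested. Added after seeing the data, leaving out members within 1 Mb of an assembly gap (CpG density, low-density share and gene-free members) or with ZNF genes (CpG density and gene-free members), or keeping the promoters with the same start (their median CpGs), moved none of these values beyond the limits, and restricting the edge profile to members of at least 1 Mb moved the shared part of the first 20 kb from 72.5% to 86.8% and H3K27me3 at 220 to 240 kb outside from 39.8% to 48.6%, and the highest H3K27me3 share outside became 54.9%, at 140 to 160 kb. Leaving out a replicate was not possible, since the sets hold only domains kept in both samples. No paired analysis was possible because the sets carry no replicate numbers and no test was made.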
